A study of Mus musculus with 4 samples.

Results

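The mitosis genes described here are 49 genes known for acting in G2 and M phase, taken by symbol from the 31040 genes counted in single cells of mouse intestinal organoids. Organoids are small epithelial cultures in which stem cells keep dividing and giving rise to mature cell types. The crypts came from 2 mice aged 10 weeks that carried floxed alleles of both Cbl and Cblb and the R26Cre ERT2 transgene, a Cre recombinase expressed from a broadly active locus and activated by tamoxifen. The organoids were grown without 4-hydroxytamoxifen (control 1 and control 2) or with it at 400 nM for 3 days (knockout 1 and knockout 2). Each group has n = 2 libraries. The labels do not state that a number marks a mouse; it was taken to do so because 2 mice and 2 numbers are given, and "mouse 1" and "mouse 2" stand for the libraries numbered 1 and 2. The controls carried the same floxed alleles and Cre and differed from the knockouts by the drug as well as by the deletion, so the effects of drug and deletion cannot be told apart. Cbl and Cblb encode ubiquitin ligases that send activated growth factor receptors, among them EGFR, to degradation. The question was how the mitosis genes stood in stem-like, transit-amplifying-like and secretory progenitor-like cells of knockout against control of the same mouse.

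Cells enter mitosis when CDK1 bound to cyclin B becomes active. Kinases such as PLK1 and the Aurora kinases then drive assembly of the spindle, chromosomes attach to it through kinetochores, and the anaphase-promoting complex ends mitosis by marking cyclin B and other proteins for destruction. Most of these genes are transcribed mainly in G2 and M phase, under promoters that often hold CCAAT boxes and an element called CHR. In the intestine, division takes place in the crypt, in stem cells and transit-amplifying cells, and stops as cells become enterocytes, goblet, Paneth or enteroendocrine cells.

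The promoters of the mitosis genes shared sequence features that the choice of genes did not use. RefSeq promoter windows (GRCm38.p6, 250 bases before to 50 after the start) were matched by symbol for 43 of the 49 genes, and entries for Tpx2, Smc4, Aurkb, Cdc25c, Dlgap5 and Cdca2 were not used here. The letters TTTGAA, the usual form of the CHR, were found on either strand in 31 of the 43 (72.1%), against 20.2% of 27025 gene symbols in the table. CCAAT was found on either strand in 35 of the 43 (81.4%), against 41.1% of all symbols, and 2 or more copies in 28 of the 43 (65.1%) against 13.3%. Neither motif contains the other, although their ends can share a base. The 100 bases before the start, 5′ to 3′, are printed for 5 genes whose levels carry the results that follow, namely 3 that rose in knockout secretory progenitor-like cells (Tubb4b, Cdk1, Top2a), the 1 that fell there (Ccnb2), and Gtse1, which rose in transit-amplifying-like cells. Capitals mark TTTGAA and CCAAT on either strand, and the window ends before the RefSeq or GENCODE start, whichever lies farther upstream.
Tubb4b: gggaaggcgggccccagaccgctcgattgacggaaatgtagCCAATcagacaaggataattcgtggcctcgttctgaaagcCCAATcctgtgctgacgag
Cdk1: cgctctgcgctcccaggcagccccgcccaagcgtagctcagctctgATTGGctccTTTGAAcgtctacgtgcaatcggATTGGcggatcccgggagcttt
Top2a: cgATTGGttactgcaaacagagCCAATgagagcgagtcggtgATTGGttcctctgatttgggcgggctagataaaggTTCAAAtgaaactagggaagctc
Ccnb2: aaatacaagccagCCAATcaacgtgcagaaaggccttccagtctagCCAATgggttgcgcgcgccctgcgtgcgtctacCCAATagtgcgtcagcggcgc
Gtse1: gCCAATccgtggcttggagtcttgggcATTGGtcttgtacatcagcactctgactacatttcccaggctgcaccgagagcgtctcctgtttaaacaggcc
These stretches lie at chr2:25224703-25224802 (Tubb4b, minus strand), chr10:69352939-69353038 (Cdk1, minus), chr11:99024190-99024289 (Top2a, minus), chr9:70421555-70421654 (Ccnb2, minus) and chr15:85859607-85859706 (Gtse1, plus). Each printed stretch held 2 or 3 CCAAT boxes. TTTGAA occurred within the printed bases of Cdk1 and Top2a, and over the full 300 bases it occurred in Tubb4b, Cdk1, Top2a and Ccnb2 and in neither of the 2 listed starts of Gtse1. Ccnb2, which moved opposite to Cdk1 and Top2a in secretory progenitor-like cells, thus held both motifs in its window as they did.

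The 4 libraries held 709 to 1983 barcodes and 22139560 to 35592468 UMIs, distinct RNA molecules counted once each. After filtering, 682 to 1903 cells per library were kept. The median cell had 19571 and 27610 UMIs in controls 1 and 2, against 16080 and 17542 in knockouts 1 and 2, so knockout cells were shallower in both mice. Any pair of libraries shared at most 1 barcode. In the 3 progenitor classes together Cbl stood at 18.6 and 22.5 CPM (UMIs per 1000000 UMIs of the class and library) in the controls against 11.6 and 10.2 in the knockouts, and Cblb at 5.94 and 3.52 against 2.35 and 0.319. Both targeted genes were thus lower in the knockout of each mouse, and transcripts of both were still counted; whether the counted reads lie in the deleted exons is not known here. A list of 16 dissociation and immediate early genes, a sign of handling stress, summed to 3485, 3663, 3861 and 3438 CPM in the same order. The sum was higher in knockout 1 and lower in knockout 2 than in the control of the same number. By gene, 5 of the 16 were called lower and 1 higher in the 3 classes together, against 3.92% and 3.15% of all genes tested. Stem-like cells gave 3 lower and 1 higher (2.59% and 1.93%). With none higher, 5 were lower in transit-amplifying-like cells (2.06%), 8 in secretory progenitor-like cells (2.72%) and 11 in all cells (8.06%). Without the mouse number in the edgeR fit, none was called in any of these. DESeq2 with the mouse number called 3, 2, 1, 0 and 10 lower, in the order given. Its part in the levels of the mitosis genes was not tested.

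Cell classes were set by marker genes outside the clusters of differentiated cells. Secretory progenitor-like cells had at least 2 UMIs of Atoh1 and Dll1 summed, stem-like cells had fewer of those and at least 2 UMIs of Lgr5, and transit-amplifying-like cells had no Lgr5 UMI and a share of UMIs from 30 S phase genes above the median of all cells. Stem-like cells numbered 293 and 72 in controls 1 and 2 and 541 and 399 in knockouts 1 and 2. Transit-amplifying-like cells numbered 128, 82, 218 and 290 in the same order, and secretory progenitor-like cells 95, 43, 105 and 149. These classes are ranges and not sharp types: 65, 21, 134 and 153 of the stem-like cells had exactly 2 Lgr5 UMIs. Of the transit-amplifying-like cells, 57.8% and 41.5% (controls) and 54.6% and 34.5% (knockouts) came from 3 clusters of low depth that got no name. In controls 1 and 2 and knockouts 1 and 2 their median UMIs were 8462.5, 37188.5, 5790 and 14639. Stem-like cells had 35502, 53447, 25909 and 25421, so an Lgr5 count of 0 can also reflect lower depth. Whether stem cells entered the class this way was not tested. The 16 stem markers, Lgr5 among them, summed to 2459, 1140, 3756 and 1865 CPM there, against 4971, 2836, 5745 and 2841 in stem-like cells. Clusters also followed the mouse: the cluster named stem-like by its markers held 237, 9, 384 and 21 cells of controls 1 and 2 and knockouts 1 and 2, and the one named transit-amplifying-like 2, 95, 11 and 570, so the gated classes draw on different clusters in mouse 1 and mouse 2. The defining markers of goblet and Paneth cells were present in the secretory progenitor-like class at 8952, 18708, 10363 and 26133 CPM (11 goblet genes summed) and 16471, 29300, 11749 and 32381 CPM (10 Paneth genes summed) in controls 1 and 2 and knockouts 1 and 2, higher in mouse 2 than in mouse 1 whatever the group.

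The 49 genes stood higher in stem-like and transit-amplifying-like cells than in differentiated cells in every library. Summed over the 49 genes, stem-like cells held 85.6 and 92.8 mitosis gene UMIs per 10000 UMIs in controls 1 and 2 and 94.1 and 93.8 in knockouts 1 and 2. Transit-amplifying-like cells held 75.4, 75.7, 78.7 and 80.5 in the same order. Enterocyte clusters held 17.8, 11.2, 17.1 and 16.6, goblet clusters 14.2, 13.8, 14.3 and 18.6, and Paneth clusters 15.4, 12.1, 12.6 and 26.1. Enteroendocrine cells held 25.5, 38.1, 18.9 and 20.3, and tuft cells, 4 to 10 per library, 13.3, 13.6, 59.3 and 15.9. Every stem-like and transit-amplifying-like value was therefore above every value of these differentiated classes, in which free RNA from dividing cells may add to the counts. In secretory progenitor-like cells the sum was 78.5 and 55.8 in the controls against 84.1 and 76.1 in the knockouts, with control 2 below the other libraries. Cells outside the marker gates held 68.3 and 48.9 in the controls against 75.6 and 65.3 in the knockouts. Their value in knockout 1 was above that of transit-amplifying-like cells in control 1. The transit-amplifying-like gate selects cells by S phase genes, so the level in that class was not independent of the gate.

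**Figure D1:**
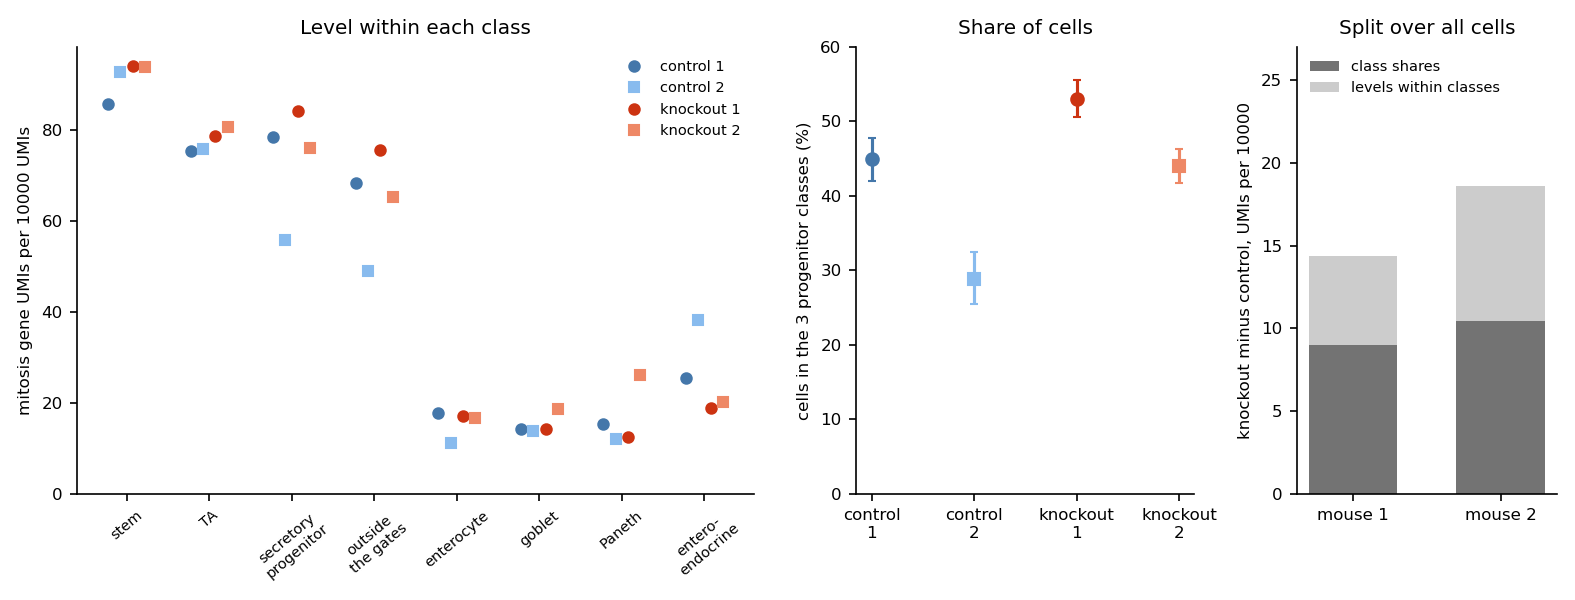
The left plot gives mitosis gene UMIs per 10000 UMIs (49 genes summed) for each library and each cell class other than tuft cells. The middle plot gives the percent of cells in the 3 progenitor classes with exact 95% counting intervals. The right plot gives the knockout minus control difference over all cells of each mouse, stacked by its arithmetic parts. Stem-like values lie between 85.6 and 94.1, enterocyte values between 11.2 and 17.8, and the share of progenitor cells is higher in the knockout of each mouse.

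With the 3 classes together, a few mitosis genes rose in the knockout and most stood near the middle of all genes tested. Of the 49, 5 rose, namely Tubb4b, Gtse1, Ckap2, Cks1b and Cdk1, against 3.15% of all 11924 genes tested that were called higher, and Ncapd2 fell, against 3.92% called lower (edgeR quasi-likelihood test with the mouse as a block, Benjamini-Hochberg adjusted p under 0.05). All 49 passed the filter on low counts, here and in each class. The median log2 fold change over the 49 was 0.04, with 32 of 49 above 0, against a median of -0.01 over all genes tested. In 28 of the 49 the knockout stood above the control in both mice, against 38.5% of all genes tested, and in 18 both knockouts stood above both controls, against 24%. The knockout stood below the control in both mice for 9 genes, and both knockouts stood below both controls for 6. The shares of all genes tested that stood so are not given here. Within the mice the median was 0.02 in mouse 1 and 0.08 in mouse 2. In the edgeR fit without the mouse as a block, 899 of all 11924 genes tested had an unadjusted p under 0.05. No mitosis gene was called by edgeR without the mouse as a block (7 at an unadjusted p under 0.05, and 1 called by DESeq2 with the block), nor with any 1 library left out, in fits that have no block either (1 to 4 at an unadjusted p under 0.05). The mix of classes also differed: stem-like cells were 293 of 516, 72 of 197, 541 of 864 and 399 of 838 cells of the 3 classes in controls 1 and 2 and knockouts 1 and 2, and its part in these values was not tested.

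The classes differed in their counts. In stem-like cells 1 gene rose (Tubb4b), against 1.93% of 11274 genes called higher, and 1 fell (Ndc80), against 2.59% called lower, with a median over the 49 of -0.04 and 18 genes above 0. With the markers read on cells thinned to 6000 UMIs, 5 rose and none fell in stem-like cells, and the median was 0.02 with 29 above 0. Of all 10870 genes tested there, 244 were called higher and 312 lower. In transit-amplifying-like cells 4 rose (Tubb4b, Gtse1, Psrc1 and Ckap2), against 2.1% of 9669 genes, none fell, against 2.06%, and the median was -0.02. In secretory progenitor-like cells 7 rose (Tubb4b, Cdk1, Top2a, Cks1b, Ube2c, Ndc80 and Mki67), against 2.79% of 10120 genes, and 1 fell (Ccnb2), against 2.72%. The median there was 0.18, with 41 of 49 genes above 0, and the medians within mouse 1 and mouse 2 were -0.04 and 0.43. Without control 2, which gave 43 cells of the class, the secretory progenitor-like median was -0.07. At a clustering resolution of 0.6, which left 11 cells of control 2 in the class, it was -0.12 with 13 of 49 genes above 0, at a resolution of 1.5 it was 0.03 with 31 above 0, and with the markers read on thinned cells 0.05 with 30 above 0. The secretory progenitor-like counts also moved with how the class was set, and so did those of all genes. In the named cluster 13 mitosis genes were called (12 higher, 1 lower), against 333 of all 9672 genes higher and 347 lower. With the markers read on cells thinned to 6000 UMIs 0 were called, against 9 of all 9742 genes higher and 14 lower. There 8 of the 49 had an unadjusted p under 0.05, against 1273 of all genes tested (edgeR).

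Counts of genes that stood higher in the knockout were near or under the share of all genes in stem-like and transit-amplifying-like cells and over it in secretory progenitor-like cells, as a description with no test. The knockout stood above the control in both mice for 17 genes in stem-like cells (41.7% of all genes tested), 14 in transit-amplifying-like cells (29.7%) and 25 in secretory progenitor-like cells (33.1%). Both knockouts stood above both controls for 14 (27.7%), 10 (19.2%) and 16 (19.1%) genes in the same classes. The knockout stood below the control in both mice for 10, 17 and 4 genes in the same order. Both knockouts stood below both controls for 7, 10 and 3, and the shares of all genes that did so are not given here.

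**Figure D2:**
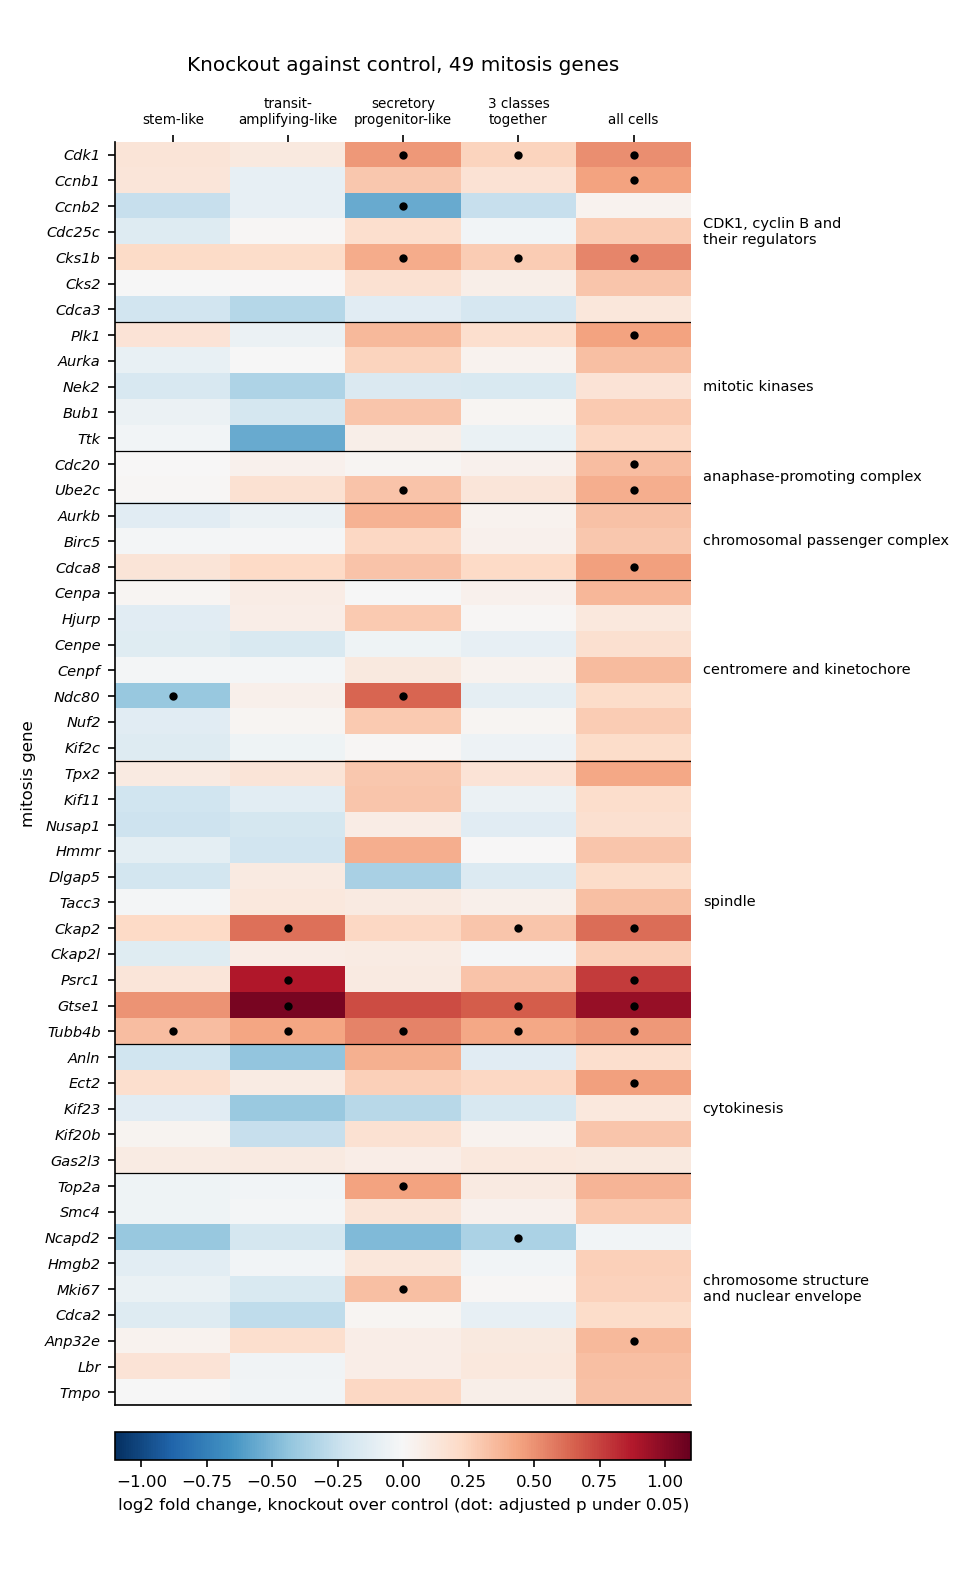
Color gives the edgeR log2 fold change, knockout over control, of each of the 49 mitosis genes (rows, grouped by role) in the 3 cell classes, the classes together and all cells (columns), and dots mark an adjusted p under 0.05. Tubb4b is marked in all 5 columns, most dots of the single classes lie under secretory progenitor-like cells, and 48 of 49 genes are above 0 in all cells.

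Among the 7 genes of CDK1, cyclin B and their regulators, Cdk1 and Cks1b rose and Ccnb2 moved the other way. Cdk1 encodes the kinase that starts mitosis (chr10:69335146-69352938, minus strand, protein coding, GENCODE M21 on GRCm38). In the 3 classes together it stood at 218.9 and 225.0 CPM in controls 1 and 2, against 267.5 and 271.8 in knockouts 1 and 2, a log2 fold change of 0.24 ± 0.07 (SE; adjusted p = 0.0405). The groups did not overlap. The difference was 0.47 ± 0.10 in secretory progenitor-like cells (adjusted p = 0.00105), from 190.9 and 153.5 to 247.4 and 238.5 CPM, 0.14 in stem-like cells (adjusted p = 0.332) and 0.11 in transit-amplifying-like cells (adjusted p = 0.745).

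Cks1b encodes a small CDK-binding subunit that also serves the ubiquitin ligase that degrades p27. It stood at 169.5 and 175.4 CPM in the controls against 211.8 and 217.7 in the knockouts over the 3 classes together, a log2 fold change of 0.28 ± 0.07 (adjusted p = 0.0220). Both knockouts were above both controls there and in each single class. Cks2, its paralog and the member of this group with the most UMIs, stood at 358.8 and 370.0 CPM in the controls against 392.3 and 391.4 in the knockouts, a log2 difference of 0.07 that did not pass the test (adjusted p = 0.616).

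The 2 B-type cyclins went in different directions in secretory progenitor-like cells. Ccnb2 fell there, from 129.5 and 113.4 CPM to 91.5 and 76.2, a log2 fold change of -0.56 ± 0.12 (adjusted p = 0.000773), and the groups did not overlap. Ccnb1 in the same cells stood at 112.1 and 93.8 CPM in the controls against 136.2 and 120.9 in the knockouts, a log2 difference of 0.30 ± 0.12 that missed the threshold (adjusted p = 0.127). Over the 3 classes together Ccnb2 was at 128.5 and 130.6 against 117.9 and 105.0 CPM (log2 difference -0.25, adjusted p = 0.0583) and Ccnb1 at 123.5 and 125.9 against 143.3 and 141.9 CPM (0.16, adjusted p = 0.218). Neither gene of the pair overlapped between groups, with opposite order. Of the other 2 genes, Cdc25c (the phosphatase that activates CDK1) and Cdca3 (a factor in the destruction of the inhibitory kinase WEE1), none passed the test in any single class.

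None of the 5 mitotic kinase genes, Plk1, Aurka, Nek2, Bub1 and Ttk, passed the test in any class or in the classes together. Plk1, the Polo kinase needed for spindle assembly and mitotic entry, was both the most counted and the one with the smallest p. It stood at 81.1 and 68.7 CPM in controls 1 and 2, against 94.1 and 80.5 in knockouts 1 and 2 in the 3 classes together (log2 difference 0.18 ± 0.08, adjusted p = 0.175). Knockout exceeded control within each mouse, but knockout 2 was below control 1. In transit-amplifying-like cells all 5 kinases had log2 differences below 0, from -0.55 for Ttk, a spindle checkpoint kinase, to -0.01 for Aurka, which acts at spindle poles.

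Ube2c and Cdc20 work with the anaphase-promoting complex, Ube2c as the ubiquitin-conjugating enzyme and Cdc20 as its mitotic activator. Ube2c rose in secretory progenitor-like cells, from 633.7 and 485.4 CPM to 755.4 and 654.6 (log2 fold change 0.32 ± 0.09, adjusted p = 0.0210). In stem-like cells it was at 629.5 and 765.8 against 713.1 and 745.6 CPM, with overlapping groups and a log2 difference of 0.02 (adjusted p = 0.941). Cdc20 differed by 0.05 or less on the log2 scale in each of the 3 classes.

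The chromosomal passenger complex corrects faulty attachments of chromosomes to the spindle, and 3 of its genes were on the list: the kinase Aurkb, survivin (Birc5) and borealin (Cdca8). None passed the test in any single class. Birc5 stood at 282.8 and 290.3 CPM in the controls against 300.6 and 305.7 in the knockouts of the 3 classes together (log2 difference 0.05, adjusted p = 0.762). Cdca8 was at 213.3 and 202.2 against 234.2 and 261.9 CPM (0.22 ± 0.08, adjusted p = 0.106), with both knockouts above both controls. In secretory progenitor-like cells Aurkb differed by 0.38 ± 0.13 (adjusted p = 0.0710).

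Of the 7 centromere and kinetochore genes, only Ndc80 passed the test in a single class, and in opposite directions. Ndc80 encodes the kinetochore subunit that binds microtubules. In stem-like cells it fell from 38.7 and 37.7 CPM to 32.4 and 26.4, a log2 fold change of -0.42 ± 0.11 (adjusted p = 0.0448). In secretory progenitor-like cells it rose from 26.9 and 11.7 CPM to 32.8 and 29.5 (0.64 ± 0.21, adjusted p = 0.0446), where the counts behind the control values were 105 and 25 UMIs. The groups did not overlap in either class. Of the alternatives that kept all libraries, 8 of 11 kept the stem-like call and 3 of 12 the secretory progenitor-like call, which was lost under RLE scaling among others and was -0.16 at clustering resolution 0.6. Cenpa, the histone H3 variant of centromeres, was at 192.0 and 192.7 against 202.5 and 205.8 CPM in the 3 classes together (0.05, adjusted p = 0.744), and Cenpe, a kinetochore motor, at 109.5 and 99.9 against 106.6 and 94.99 CPM (-0.09, adjusted p = 0.530). The other 4, Hjurp (which loads Cenpa), Cenpf, Nuf2 (a partner of Ndc80) and Kif2c (a microtubule depolymerase), had log2 differences from -0.06 to 0.04 in the 3 classes together.

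Spindle genes gave 3 of the 5 genes that rose with the classes together. Tubb4b, a beta-tubulin (chr2:25222160-25224702, minus strand, protein coding), rose in each class. In stem-like cells it went from 1067 and 1216 CPM in controls 1 and 2 to 1399 and 1605 in knockouts 1 and 2 (log2 fold change 0.34 ± 0.06, adjusted p = 0.00692). In transit-amplifying-like cells it went from 1005 and 1122 to 1305 and 1589 CPM (0.43 ± 0.09, adjusted p = 0.000906), and in secretory progenitor-like cells from 940.2 and 763.5 to 1179 and 1342 CPM (0.54 ± 0.09, adjusted p = 8.52e-06). Both knockouts stood above both controls in every class. Beta-tubulin genes share much coding sequence, so how reads were divided among them is uncertain. Tubb4b was also the single mitosis gene called by DESeq2 with the block in the classes together, and its call was lost without the block (log2 fold change 0.43, adjusted p = 0.604).

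Gtse1, Psrc1 and Ckap2 rose in transit-amplifying-like cells. Gtse1 encodes a microtubule-associated protein that stabilizes microtubules in mitosis (chr15:85859745-85876573, plus strand), and Psrc1 one that acts in chromosome alignment. Both have been known in mouse cells as genes induced by p53. Gtse1 went from 8.81 and 7.67 CPM in controls 1 and 2 to 16.8 and 17.1 in knockouts 1 and 2 (log2 fold change 1.05 ± 0.28, adjusted p = 0.0168), on 20, 22, 40 and 78 UMIs. Psrc1 went from 14.5 and 10.46 to 21.8 and 23.3 CPM (0.88 ± 0.23, adjusted p = 0.0157), on 33, 30, 52 and 106 UMIs. Ckap2, which encodes a spindle-associated microtubule protein (chr8:22168160-22185819, minus strand), went from 30.4 and 35.6 to 48.6 and 52.5 CPM (0.61 ± 0.16, adjusted p = 0.0153). The groups did not overlap for any of the 3 genes.

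In the 3 classes together Gtse1 stood at 9.68 and 6.71 CPM in the controls against 15.01 and 11.86 in the knockouts (0.67 ± 0.15, adjusted p = 0.0116), Ckap2 at 41.5 and 38.3 against 50.1 and 51.5 CPM (0.31 ± 0.08, adjusted p = 0.0404), and Psrc1 at 18.0 and 13.1 against 19.9 and 20.1 CPM (0.31 ± 0.13, adjusted p = 0.164). Beside them, 12 of 19 genes of a p53 target list that holds none of the 49 were called higher and none lower in the same cells. Of all genes tested 3.15% were called higher. Without the block 0 of the 19 were called, and with DESeq2 8 were called higher. The list was chosen with earlier results of these data known. It summed to 553.3 and 720.9 CPM in the controls against 787.3 and 1055 in the knockouts. The part of this list in the levels of Gtse1, Psrc1 and Ckap2 was not tested. Over cells of the 3 classes, Gtse1 and Psrc1 also followed the sum of the 49 genes least, with a mean within-library Pearson r of 0.22 and 0.28, against 0.83 for Hmgb2 and 0.69 for Cdk1; the sum includes the gene itself, and r falls with sparse counts, Gtse1 having 0.31 UMIs per cell. Without cells of the low-depth clusters none of the 3 genes was called in transit-amplifying-like cells. The other 7 spindle genes, Tpx2, Kif11, Nusap1, Hmmr, Dlgap5, Tacc3 and Ckap2l, passed no test in any single class, and Hmmr came nearest in secretory progenitor-like cells (0.40 ± 0.14, adjusted p = 0.0693).

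**Figure D3:**
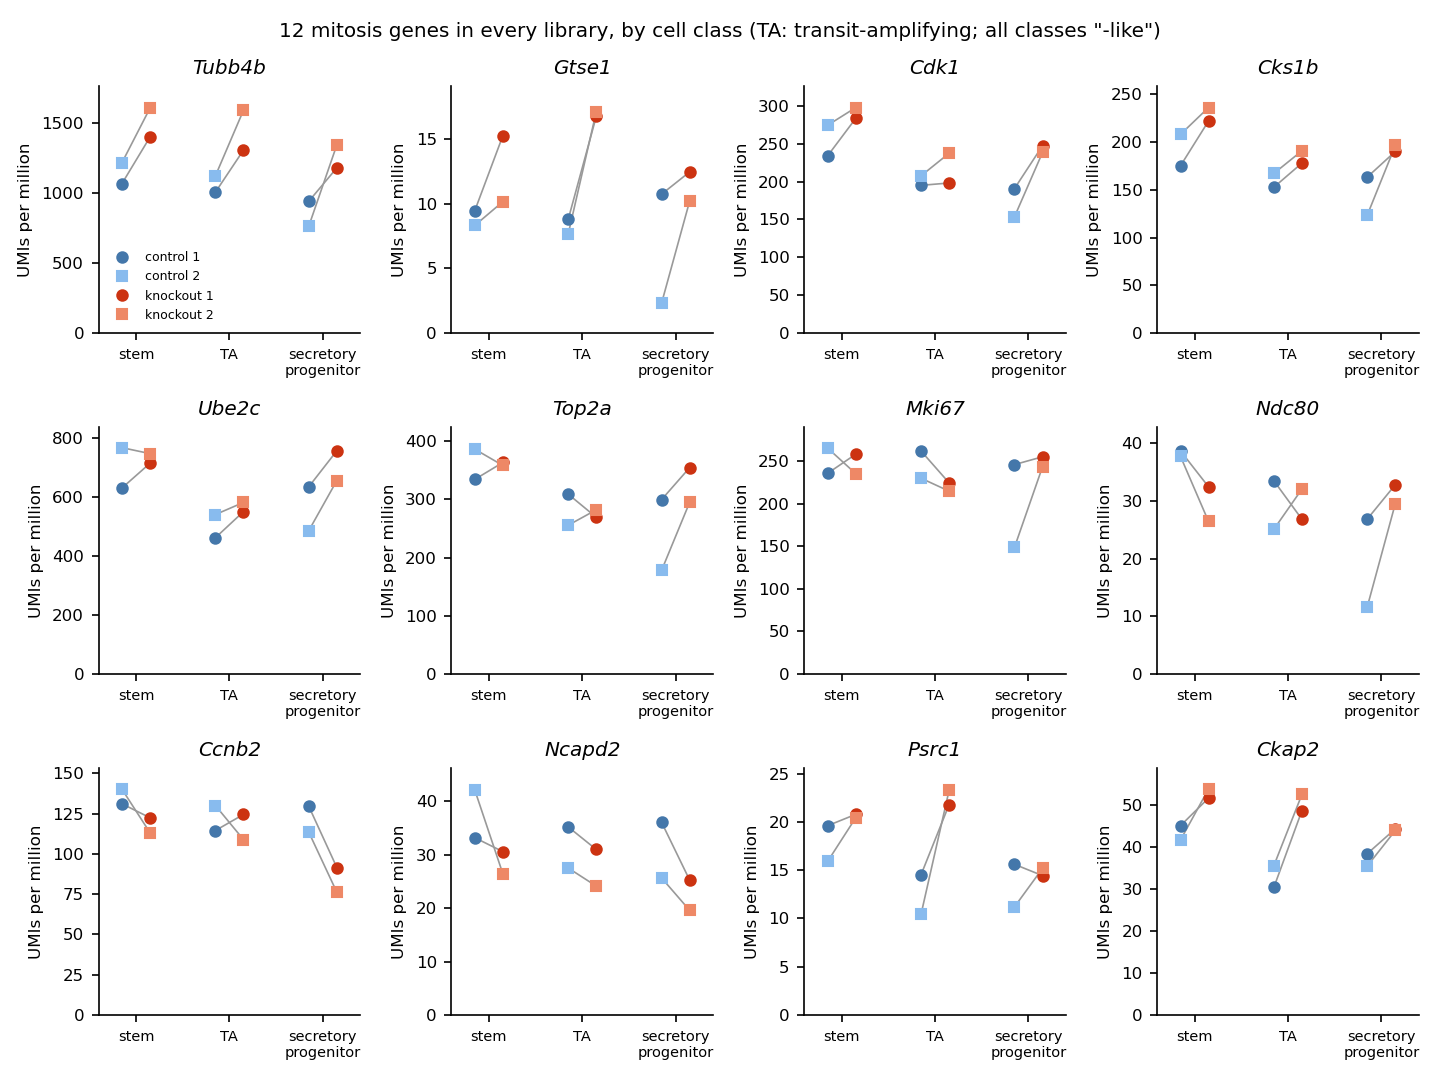
Each panel gives 1 mitosis gene in CPM, by library, in stem, transit-amplifying (TA) and secretory progenitor-like cells; circles are mouse 1, squares mouse 2, and grey lines join control (blue) and knockout (red) of the same mouse. Tubb4b climbs from control to knockout in each class and mouse, Ccnb2 drops in secretory progenitor-like cells, and control 2 is low for Mki67, Top2a and Ndc80 in that class.

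None of the 5 cytokinesis genes passed the test in any class or in the classes together. They are Anln (anillin, of the cleavage furrow), Ect2 (which activates RhoA there), the midzone motors Kif23 and Kif20b, and Gas2l3, which links actin and microtubules. Ect2 stood at 49.7 and 41.7 CPM in the controls against 60.6 and 48.98 in the knockouts of the 3 classes together (log2 difference 0.22 ± 0.08, adjusted p = 0.110), and Kif20b at 79.4 and 68.8 against 82.3 and 74.1 CPM (0.04, adjusted p = 0.819). For both genes knockout exceeded control within each mouse and the groups overlapped.

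Among the 9 genes of chromosome structure and the nuclear envelope, Top2a and Mki67 rose in secretory progenitor-like cells and Ncapd2 fell in the classes together. Top2a encodes the topoisomerase that disentangles sister chromatids. It went from 299.6 and 178.3 CPM to 354.4 and 294.8 in secretory progenitor-like cells (log2 fold change 0.44 ± 0.10, adjusted p = 0.00198), with knockout 2 below control 1. Mki67, which coats mitotic chromosomes, went from 246.1 and 148.9 to 255.3 and 243.5 CPM there (0.33 ± 0.11, adjusted p = 0.0467), with overlapping groups and most of the difference in mouse 2. The Mki67 call was kept in 2 of 12 alternatives that kept all libraries, with values from -0.29 to 0.54, and was lost under RLE scaling and without the low-count filter. The Top2a call was kept in 6 of 12, and its value was about 0 at clustering resolution 0.6. In the 3 classes together the 2 genes differed by 0.10 and 0.01 on the log2 scale (adjusted p = 0.456 and 0.935).

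Ncapd2, a subunit of condensin (chr6:125168007-125191701, minus strand), fell from 34.1 and 33.6 CPM to 29.8 and 24.6 in the 3 classes together (log2 fold change -0.35 ± 0.09, adjusted p = 0.0330), with no overlap. It missed the threshold in each single class, at -0.41 in stem-like, -0.19 in transit-amplifying-like and -0.49 in secretory progenitor-like cells (adjusted p = 0.0906, 0.720 and 0.136). Hmgb2, a chromatin protein of dividing cells and the member with the most UMIs, stood at 1455 and 1294 against 1538 and 1241 CPM (-0.03, adjusted p = 0.871), higher in knockout 1 and lower in knockout 2 than in the control of the same mouse. Of the remaining genes Smc4 (condensin), Cdca2, Anp32e, Lbr and Tmpo, none passed the test in any single class.

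A test of the difference itself asked whether the knockout effect differed between classes (edgeR interaction term, each library a block). No mitosis gene differed between secretory progenitor-like and transit-amplifying-like cells (0.136% of all genes tested did). At an unadjusted p under 0.05 there were 14 of 49, against 723 of all 10279 genes tested. The smallest adjusted p was 0.333, that of Hmmr (difference of log2 fold changes 0.67 ± 0.17). The effect was larger in secretory progenitor-like cells for 38 of the 49, with a median difference of 0.19, against 0.02 over all genes tested. The share of all genes with a larger effect there is not given here. None differed between stem-like and transit-amplifying-like cells (0.0947% of all genes did, smallest adjusted p = 0.530). In that comparison 6 of 49 had an unadjusted p under 0.05, against 726 of all 10563 genes tested. None differed between secretory progenitor-like and stem-like cells (0% of all genes). There 5 of 49 had an unadjusted p under 0.05, against 289 of all 10585 genes tested. The calls in single classes are therefore not shown to be particular to a class.

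The share of cells high in mitosis genes was read after each cell was thinned to 6000 UMIs; a cell was high when the 49 genes held at least 1% of those UMIs. In the 3 classes together 34.9% (exact Clopper-Pearson 95% interval 30.6 to 39.5; 161 of 461 cells) and 34.5% (27.4 to 42.1; 59 of 171) of cells were high in controls 1 and 2, and 41.4% (37.8 to 45.1; 300 of 725) and 39.7% (36.2 to 43.4; 294 of 740) in knockouts 1 and 2. The knockouts were above the controls in both mice by 5.84 percentage points on average. The exact two-sided permutation p was 0.333, the smallest that 2 against 2 libraries allow, and the permutation did not keep the pairing by mouse. Unthinned, the shares were 33.1%, 33.5%, 38.2% and 39.6%. Between 36 and 220 cells per library lay within 20% of the limit, and intervals cover counting error only.

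The mean difference was 13.8 points in secretory progenitor-like cells. There 30.4% (21.3 to 40.9) and 14.3% (5.43 to 28.5) of control cells were high, on 92 and 42 cells, against 38.8% (29.4 to 48.9) and 33.6% (26.0 to 41.8) of knockout cells (exact permutation p = 0.333). With the markers read on thinned cells the shares were 37.1% and 19.0% against 39.8% and 32.8% (exact permutation p = 0.667). The mean difference was then 8.20 points, 2.65 in mouse 1 and 13.7 in mouse 2. At a limit of 2% of UMIs, with the markers read unthinned, the difference in this class was -1.99 points, lower in both mice. Only 3 and 1 cells of controls 1 and 2 and 1 cell of each knockout reached that limit. In stem-like cells the shares were 38.2% and 53.5% against 44.7% and 47.8%, higher in the knockout of mouse 1 and lower in that of mouse 2. With classes from named clusters the mean differences were 15.8 points in stem-like cells, on 9 cells of control 2, and 13.3 points in secretory progenitor-like cells. The named transit-amplifying-like cluster gave -37.1 points, lower in both mice, but it held 2 cells in control 1 and 11 in knockout 1. With the marker gate, the shares of transit-amplifying-like cells were 29.1% and 25.9% in the controls against 28.0% and 29.4% in the knockouts, with overlapping intervals. Many gated cells of this class lay under the thinning depth and were left out. These were 42 of 128 and 24 of 82 in controls 1 and 2, and 111 of 218 and 79 of 290 in knockouts 1 and 2. With the markers read on thinned cells, this class gave 33.3% and 28.3% in the controls against 38.5% and 37.0% in the knockouts. The knockout was then higher in both mice, by 6.95 points on average (exact permutation p = 0.333). Within high cells of the 3 classes the 49 genes held 136.0 and 128.1 UMIs per 10000 in the controls against 136.3 and 125.5 in the knockouts. High cells were picked by the same 49 genes, so these levels are bounded by the cut and carry no test. At the 2% limit the mean difference over the 3 classes together was -0.18 points, with 0.27% to 0.87% of cells high per library.

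**Figure D4:**
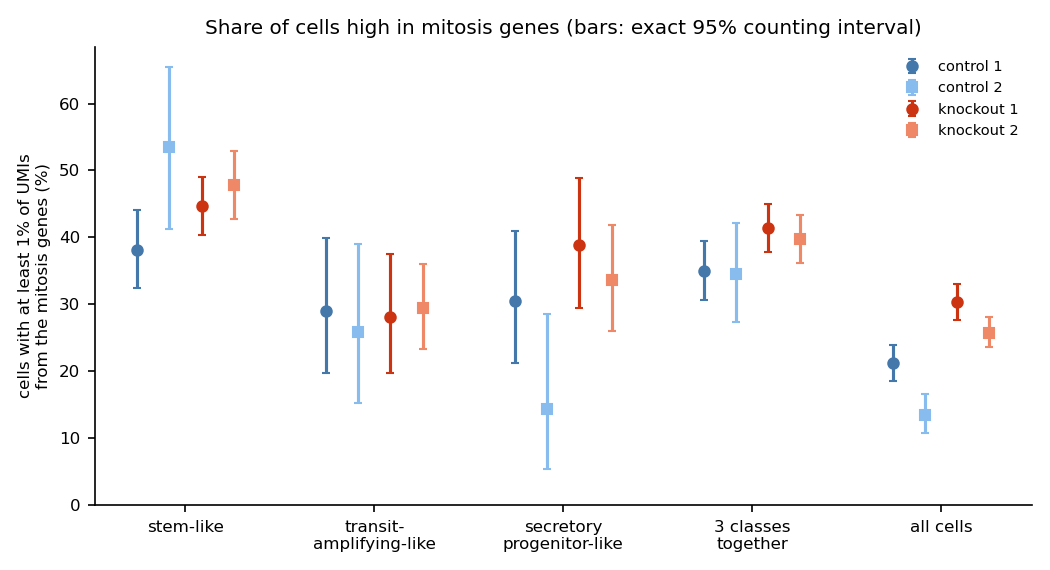
Points give the percent of cells, thinned to 6000 UMIs, in which the 49 mitosis genes held at least 1% of UMIs, by class and library, with exact Clopper-Pearson 95% intervals for counting error. In the 3 classes together both knockouts (41.4% and 39.7%) lie above both controls (34.9% and 34.5%), and control 2 is lowest in secretory progenitor-like cells at 14.3%.

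Counted over all cells, nearly all mitosis genes were higher in the knockout. Of the 49, 13 rose, against 4.31% of 13244 genes tested, and none fell, against 8.06%. The knockout stood above the control in both mice for 46 genes, against 39.7% of all genes tested, and both knockouts above both controls for 18, against 22.2%. In all, 48 of 49 had a log2 difference above 0, with a median of 0.31. The 13 genes that rose were Gtse1 (0.96), Psrc1 (0.77), Ckap2 (0.61), Cks1b (0.54), Cdk1 (0.51), Tubb4b (0.48), Cdca8 (0.45), Ect2 (0.45), Plk1 (0.45), Ccnb1 (0.45), Ube2c (0.40), Anp32e (0.35) and Cdc20 (0.34). For example Cdk1 stood at 157.4 and 127.5 CPM over all control cells and 218.1 and 196.9 over all knockout cells, with no overlap. Ncapd2, at -0.03, was the exception to the common direction. The median was 0.09 without control 2 and 0.53 without control 1. No gene was called by edgeR without the mouse as a block. In that fit 8 of the 49 had an unadjusted p under 0.05, against 1142 of all 13244 genes tested.

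The makeup of the cultures moved with this result. Cells of the 3 progenitor classes made up 44.9% (42.0 to 47.8) and 28.9% (25.5 to 32.4) of control cells and 53.1% (50.6 to 55.5) and 44.0% (41.8 to 46.3) of knockout cells. Differentiated cells made up 40.6% and 55.0% of control cells and 26.8% and 32.5% of knockout cells. Over all cells the 49 genes summed to 62.3 UMIs per 10000 in control 1 and 76.7 in knockout 1, and to 47.9 in control 2 and 66.5 in knockout 2. In an arithmetic split, differences in the share of UMIs that each class held gave 9.00 of the 14.4 UMIs per 10000 by which the knockout exceeded the control in mouse 1 (62.7%) and 10.45 of 18.6 in mouse 2 (56.3%). The rest came from levels within classes, including the cells outside the marker gates. The transit-amplifying-like gate uses S phase genes, so the class shares themselves depend on cycling state. The split was made with this gate alone.

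Of a wider list of 93 further mitosis genes, none of them among the 49, 3 rose and none fell in the 3 classes together, near the 3.15% of all genes tested that were called higher, with a median log2 difference of 0.04. The 5 with the smallest p were Zwint, a kinetochore adaptor (63.2 and 68.8 against 77.6 and 94.4 CPM; log2 fold change 0.34, adjusted p = 0.0200), Trip13, a checkpoint ATPase (34.03 and 35.07 against 42.1 and 50.1; 0.37), Pimreg (21.7 and 14.4 against 26.9 and 21.4; 0.37), Oip5, of the centromere (15.6 and 15.8 against 12.8 and 11.1; -0.43) and Jpt1 (480.9 and 451.9 against 561.2 and 538.1; 0.20). The first 3 were those called. In secretory progenitor-like cells 5 of the 93 rose and none fell, and 8 of 30 S phase genes rose and none fell there, against 2.79% of all genes tested called higher. Both counts were 0 with DESeq2, without the block, with the markers read on thinned cells, and at clustering resolutions 0.6 and 1.5. In the named cluster 17 and 9 rose, against 333 of all 9672 genes tested. The 10 genes outside the 49 whose level over cells followed the sum of the 49 most closely were H2afx, Prc1, Ccna2, Ube2s, Racgap1, Tubb5, Tuba1b, Arl6ip1, Tuba1c and Smc2, with a mean Pearson r of 0.65 to 0.58 within the 4 libraries over 2415 cells of the 3 classes. All 10 were on the wider list. The cells share library, depth and capture, so these values describe the data and carry no test.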

How the data were processed

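Single-cell RNA was measured with 10x Genomics droplets in 4 libraries, grouped by their titles. The deposited values are whole-number UMI counts per gene and cell barcode, made by the authors with Cell Ranger 3.0.1 on mm10, per the submitters' processing notes; the version named per the file headers is 3.0.0. The annotation release and strand setting are not given in the sources used here, so overlapping genes are uncertain. Barcodes under 500 genes (173 of 5602) and the highest Scrublet scores (0.8% per 1000 barcodes, 67 in all) were left out. Log-normalized counts (2000 variable genes, 30 components, 15 neighbours, mice aligned) were clustered with Leiden at resolution 1 in scanpy 1.11.5, only to set aside differentiated cells.

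The design planned to test stem-like and transit-amplifying-like cells in named clusters, but these held 9 stem-like cells in control 2 and 2 transit-amplifying-like cells in control 1, under the minimum of 10. The marker gate, planned as an alternative, was therefore used for all classes, a choice made after the data were examined. The UMIs were added up for each library and class, and these sums were tested with edgeR 4.0.16 (glmQLFit and glmQLFTest, TMM, filterByExpr, two-sided, Benjamini-Hochberg over all genes tested, adjusted p under 0.05) in R 4.3.3, with the mouse as a block. The fit was tested on simulated counts. CPM is UMIs per 1000000 UMIs of a class and library. The block is the library number, taken to mark the mouse because the series names 2 mice and the titles 2 numbers per group; the labels do not state this. Deviations of same-numbered libraries correlated at 0.37 (stem-like), 0.37 (transit-amplifying-like), 0.49 (secretory progenitor-like), 0.57 (classes together) and 0.66 (all cells). The fit leaves 1 residual degree of freedom per gene, so much of the spread is taken from other genes. With the block, p-values measure how the difference between knockout and control varies between these 2 mice. Without the block they measure the spread between libraries of a group. The libraries of a group were distinct (chi-square per degree of freedom 86.7 for controls and 60.2 for knockouts).

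Alternatives were the fit without the block, DESeq2 1.42.0, other scalings and filters, other clusterings, other gates and each library left out. The 49 genes and all lists were chosen with earlier results of these data known. All 49 may be named; values by library were given for the most counted member and the member of smallest p in each role, for Mki67, Top2a, Cdk1, Ccnb1, Plk1, Gtse1 and Psrc1, and, added after the class results were seen, for members called in a class. Of a wider mitosis list the 5 genes of smallest p were named, and of all other genes the 10 that correlated most with the summed members over cells.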

Additional observations from a re-analysis of the deposited data

Results flagged for a closer look

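Ndc80 moved in opposite directions in both mice of 2 classes, with a log2 fold change of -0.42 in stem-like and 0.64 in secretory progenitor-like cells. The difference of 1.02 ± 0.32 gave an unadjusted p of 0.0116 and did not pass the adjusted test (edgeR, adjusted p = 1.00).

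Mki67 stood lower in the knockout of both mice in transit-amplifying-like cells (log2 difference -0.16) and higher in both in secretory progenitor-like cells (0.33). The difference of 0.53 ± 0.16 did not pass the adjusted test (edgeR, adjusted p = 0.468).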

How the results depend on the processing

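Without the mouse as a block, edgeR called 0 mitosis genes in every class, in the classes together and in all cells. DESeq2 with the block called 1 gene in stem-like, 1 in transit-amplifying-like and 0 in secretory progenitor-like cells. In the last class 5 of the 49 had an unadjusted p under 0.05, against 310 of all 10120 genes tested. DESeq2 called 1 in the classes together and 10 in all cells, the last within 1.5 times of 13. The fits with 1 library left out have no block either, and the lone library is assumed to vary like the other group; their counts ran from 0 to 0 everywhere. Medians then ran from -0.13 to 0.0359 (stem-like), -0.07 to 0.04 (transit-amplifying-like), -0.07 to 0.45 (secretory progenitor-like), -0.0055 to 0.0809 (classes together) and 0.0924 to 0.53 (all cells), and the mean difference in the share of high cells from -7.30 to 8.06 points (stem-like), -0.36 to 2.85 (transit-amplifying-like), 5.76 to 21.9 (secretory progenitor-like), 5.02 to 6.67 (classes together) and 6.85 to 14.6 (all cells).

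At clustering resolution 0.6 the counts were 6 (stem-like, 3 higher and 3 lower, while 518 of 11253 genes were called higher and 618 lower, against 218 and 292 of 11274), 2 (transit-amplifying-like), 1 (secretory progenitor-like, 11 cells in control 2) and 1 (classes together), with Ube2c at -0.0699, Mki67 at -0.29, Top2a at -0.0045 and Ndc80 at -0.16 in secretory progenitor-like cells. At resolution 1.5 that class gave 1 call, with Mki67 at -0.0333. Doublets kept gave 5 (stem-like) and 3 (secretory progenitor-like), named clusters 13 (secretory progenitor-like), no alignment of the mice 3 (classes together). Gates on thinned cells, chosen after seeing the data like the named clusters, the low-depth and the library-size alternatives, gave 5 (all higher), 2 and 0 in the 3 classes. Leaving out low-depth clusters gave 4 (stem-like) and 1 (transit-amplifying-like). In all cells RLE scaling gave 20, no low-count filter 28 and library size alone 26, while all genes called higher went from 571 of 13244 to 769 of 13244, 1304 of 19335 and 1183 of 13244. The transit-amplifying-like share difference was -3.00 points thinned to 4000 UMIs, -1.42 not thinned and -0.10 without low-depth clusters. It was 6.95 points with the gate on thinned cells and 4.92 at 0.5% of UMIs, higher in both mice each time. At 2% of UMIs the share difference was -1.99 points (secretory progenitor-like) and -0.18 (classes together), where few cells reached the limit. The cause of these changes was not tested. Tubb4b in the classes together was called in 11 of 12 alternatives that kept all libraries, the exception being no block, at 0.39 to 0.46; Gtse1 and Cks1b there were called in 9, Ncapd2 in 7, and Cdk1 and Ckap2 in 6. Tubb4b in secretory progenitor-like cells was called in 9 of 12, Cdk1 and Ccnb2 in 7, Ube2c, Cks1b and Top2a in 6, Ndc80 in 3 and Mki67 in 2. In transit-amplifying-like cells Tubb4b was called in 10 of 11, Ckap2 in 7, and Gtse1 and Psrc1 in 6. Depth limits small genes: Gtse1 had 5 UMIs in secretory progenitor-like cells of control 2.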
